A study of Mus musculus with 8 samples.

Results

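The genes described here are 10 genes of regulated vesicle release, Sytl4, Syt1, Syt4, Syt11, Snap25, Stx1a, Vamp2, Syp, Cadps and Cadps2, out of 18194 genes with a probe set annotated to a single gene. The genes were taken from a list of vesicle release genes. Sytl4 and Cadps2 were placed on it because they changed in opposite directions in tumor 7, so their values there are a description and carry no test. The 10 genes had 23 probe sets, and all 10 lay among the 16254 genes that passed the filter on low values. RNA was profiled from 8 untreated tumors of mice labelled LSL-MYCN;Dbhi-Cre, a genotype that the study writes LSL-MYCN;Dbh-iCre, with 1 Affymetrix whole-genome murine array per tumor. In these mice a human MYCN cDNA at the ROSA26 locus is released by a Cre recombinase that the dopamine β-hydroxylase promoter drives, so both alleles are shared by all tumors compared. Tumors 1 to 6 grew in the adrenal and tumors 7 and 8 in the superior cervical ganglion, which belongs to the sympathetic chain. Ages are not given in the sources used here, nor is whether any 2 tumors shared a mouse. The p-values treat the 8 tumors as independent and set the site difference against the spread between tumors within the sites. Normal tissue was not analysed here.

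Neuroblastoma cells derive from sympathoadrenal precursors, which store catecholamines and neuropeptides in dense-core vesicles and, as neurons, acetylcholine or noradrenaline in synaptic vesicles. A vesicle docks at the plasma membrane with the help of RAB GTPases and their effectors, is primed, and fuses when the vesicle SNARE VAMP2 zippers with syntaxin 1A and SNAP25. Synaptotagmins sense the calcium that triggers fusion, and CAPS proteins prime dense-core vesicles. Sytl4 encodes granuphilin, a RAB27 effector that docks secretory granules, and Cadps and Cadps2 encode the 2 CAPS proteins.

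The promoter sequences of Sytl4, Cadps2 and Cadps are shown because Sytl4 and Cadps2 parted furthest in tumor 7 and Cadps is the paralog of Cadps2. They are the 250 bases before the annotated start, from RefSeq on GRCm38.p6, written 5′ to 3′ on the coding strand, which is the minus strand for all 3 genes. Sytl4 lies at chrX:133981813-133982062, Cadps2 at chr6:23839422-23839671 and Cadps at chr14:12823080-12823329. Capitals mark CACGTG, the E-box that MYC and MAX dimers bind.
Sytl4: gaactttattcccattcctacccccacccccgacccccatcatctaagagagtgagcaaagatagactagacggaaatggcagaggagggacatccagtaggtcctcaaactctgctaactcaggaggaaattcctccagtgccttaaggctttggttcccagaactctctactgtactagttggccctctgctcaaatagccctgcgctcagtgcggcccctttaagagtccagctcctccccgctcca
Cadps2: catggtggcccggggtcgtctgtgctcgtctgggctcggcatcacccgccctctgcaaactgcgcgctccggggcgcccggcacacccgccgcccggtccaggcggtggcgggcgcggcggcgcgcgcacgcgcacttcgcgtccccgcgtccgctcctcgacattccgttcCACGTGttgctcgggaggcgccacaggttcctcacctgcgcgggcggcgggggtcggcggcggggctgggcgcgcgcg
Cadps: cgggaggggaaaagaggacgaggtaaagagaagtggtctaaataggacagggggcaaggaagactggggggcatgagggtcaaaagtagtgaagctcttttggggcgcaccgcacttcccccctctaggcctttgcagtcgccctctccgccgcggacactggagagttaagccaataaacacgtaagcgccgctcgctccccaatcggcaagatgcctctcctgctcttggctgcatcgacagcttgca

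Windows from 250 bases before to 50 after the start were matched for 7 of the 10 genes, 8 windows in all, and not for Syt4, Snap25 and Vamp2. Of the 300 bases, G and C made up 79.7% for Cadps2, 58.0% for Cadps and 54.7% for Sytl4, against a median of 52.7% over 32851 windows of the same length. The windows were searched on both strands for 8 motifs. CACGTG was held by the Cadps2 window alone, 78 bases before the start, and by 7.15% of all windows. GGCGGG, the SP1 box, was in 5 of the 8 windows (Syt1, Syt11, Stx1a, Syp and Cadps2) and in 35.3% of all. The GATA site AGATAA was in the windows of Syt1 and Stx1a and in 11.2% of all, and the E-box of SNAI and ZEB factors, CAGGTG, was in that of Cadps2 and in 20.2% of all. TGACGTCA, the cyclic AMP response element, was in none of the 8 and in 1.79% of all. CAGCACC, the left part of the RE1 element, was in none of the 8 and in 7.14% of all, TATAAA, the TATA box, in none and in 13.6%, and TAATTA, a homeodomain core, in none and in 5.29%. CACGTG and CAGGTG share the form CANNTG and cannot match the same bases on the same strand. A match is a description of these letters and not a binding site.

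All values are log2 array values as deposited, and each gene was read from its probe set with the highest mean. A probe set was called detected in a tumor when it exceeded the 95th percentile of 84 probe sets of olfactory, vomeronasal and taste receptors on the same array, which ran from 6.71 to 7.21. Tumor 7 stood apart from the other tumors: 10 of 10 measured noradrenergic markers were lowest there, 7 of them at least 1 below the range of the other tumors, and the mean of the list relative to its 8-tumor mean was -3.00 against 0.25 to 0.66 elsewhere. Dbh, the gene whose promoter drives Cre, was 9.07 in tumor 7 and between 12.53 and 13.54 in the rest. The sensory neuron factor Pou4f1 was 9.92 in tumor 7 and between 4.93 and 5.49 in the rest, while the 5 measured sensory neuron markers together lay at 0.31 against -0.35 to 0.33. The remaining markers of that list went the other way. Avil was 7.16 in tumor 7 and between 8.45 and 10.45 in the rest. Tlx3, Neurog1 and Isl2 differed from the mean of the others by -0.58, -0.09 and -0.08, and Neurog1 was detected in no tumor. Skeletal muscle markers (6 measured) lay at 1.47 in tumor 7 and 0.75 in tumor 8 against -0.55 to -0.21 in the adrenal tumors, and 7 liver and 6 adrenal cortex markers at 5.79 and 1.55 in tumor 6, where no other tumor exceeded -0.51 and -0.01. The gap between the 3′ and the 5′ probe sets of Gapdh, which widens as RNA degrades, was 5.51 in tumor 1, 1.57 in tumor 7 and between 0.47 and 1.14 in the other 6. For Actb it was 2.77 in tumor 1, 1.85 in tumor 7 and between 0.64 and 1.35 in the other 6. The part of these differences in the results below was not tested.

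Sytl4 was detected in every tumor but tumor 7. Its probe set 1417336_a_at read 13.02, 12.58, 14.05, 12.87, 12.64 and 12.40 in adrenal tumors 1 to 6, 6.26 in tumor 7 and 12.70 in tumor 8. Tumor 7 thus lay 6.14 below the lowest of the other tumors and under the detection limit of its array, which was 6.73, whereas the other ganglion tumor lay within the adrenal range. Against the mean of the other 7 tumors, 12.89 ± 0.55 (SD, n = 7), the difference was -6.63 as measured, and with tumor 7 set at the detection limit Sytl4 was at least 71.7-fold lower. Fewer cells of a type and less RNA per cell cannot be told apart in these bulk samples. The probe set 1425998_at of Sytl4 read 4.63 to 5.18 and was detected in no tumor, so it bears on no difference.

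Cadps2 showed the opposite pattern. Its single probe set 1451499_at read 5.00, 5.58, 5.98, 4.43, 4.44 and 4.75 in the adrenal tumors, 9.31 in tumor 7 and 5.22 in tumor 8. It was detected in tumor 7 only, where it lay 3.33 above the highest of the other tumors. The difference from the mean of the others, 5.06 ± 0.58 (SD, n = 7), was 4.25 as measured, and with the other 7 tumors set at their detection limits Cadps2 was at least 5.14-fold higher.

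Its paralog Cadps did not share this pattern. Probe set 1448955_s_at read 10.88, 11.32, 11.12, 11.20, 11.38 and 11.25 in the adrenal tumors, 10.67 in tumor 7 and 11.05 in tumor 8. Tumor 7 was the lowest, 0.21 below the others, and lay -0.50 from their mean. The suffix of this probe set marks probes that can match transcripts of more than 1 gene, and whether Cadps2 RNA adds to it was not tested. Nor was it tested whether other transcripts add to the probe sets read for Syt11 (1456464_x_at) and Stx1a (1437390_x_at), which carry an _x_at suffix. The levels of Sytl4, Cadps2 and the other 8 genes are plotted by tumor, with the detection limit of each array.

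**Figure D1:**
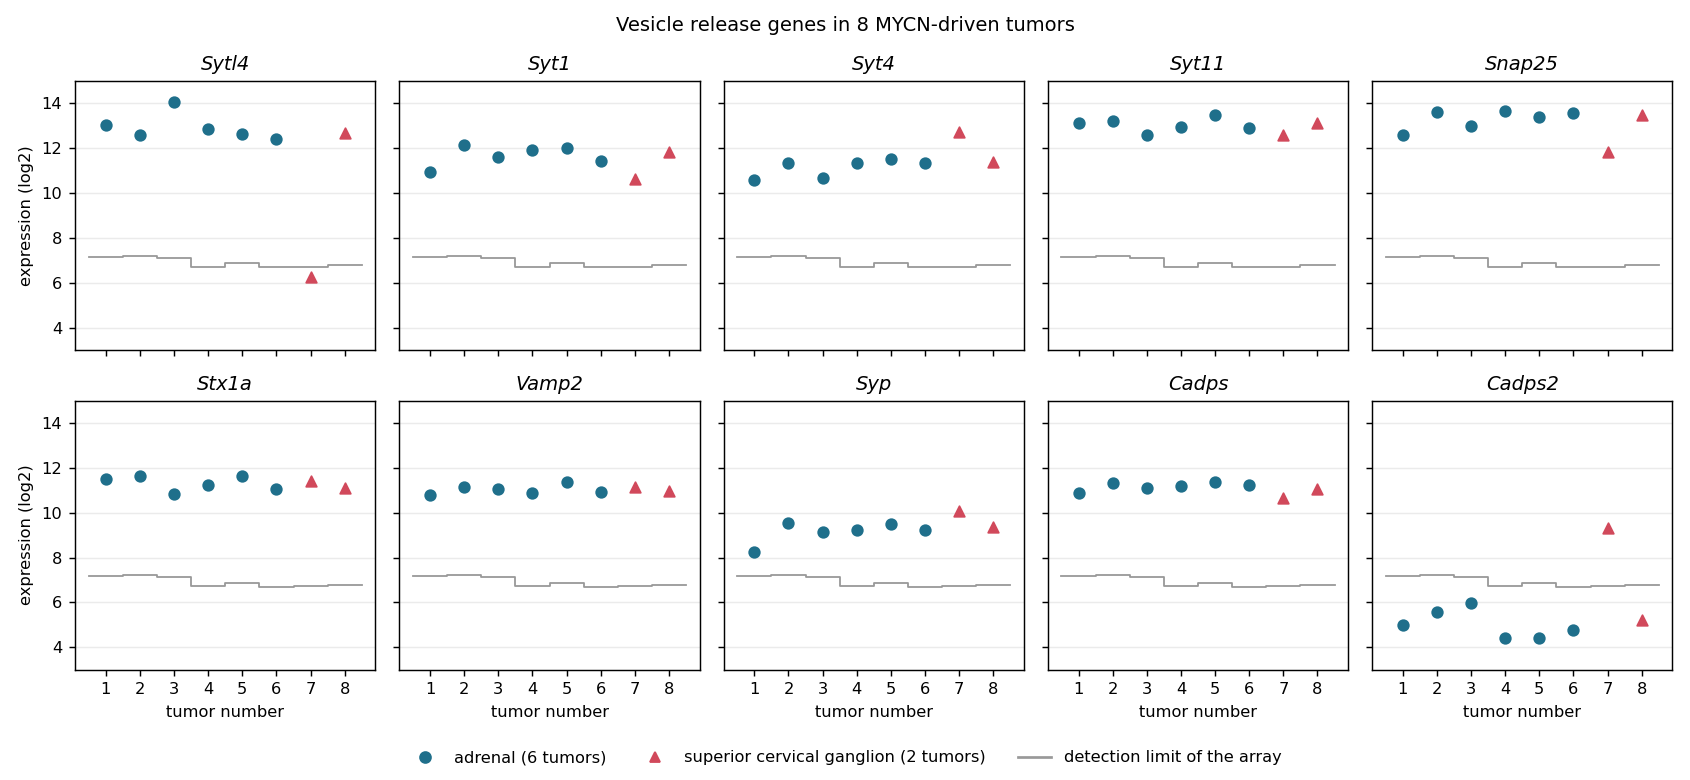
Expression (log2, vertical axis) of the 10 genes in tumors 1 to 8 (horizontal axis), 1 point per tumor and 1 probe set per gene; circles are adrenal and triangles superior cervical ganglion tumors, and the grey line is the detection limit of each array. Sytl4 fell under the limit in tumor 7 alone (6.26), and Cadps2 lay above it in tumor 7 alone (9.31).

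In tumor 7, 2.05% of the 16254 genes tested lay at least 1 above the range of the other 7 tumors and 2.25% at least 1 below it. Over all genes, tumor 7 was the highest tumor for 17.3% and the lowest for 26.4%. Of the 8 genes that were not chosen on tumor 7, Syt4 and Syp were highest there, and Syt1, Snap25 and Cadps lowest. Syt4 lay at least 1 above the range and no gene of the 8 lay at least 1 below it. The median absolute difference of tumor 7 from the other tumors was 0.70 over the 8 genes and 0.28 over all genes tested. With 8 genes these shares are a description. The 8 genes were detected in all tumors, while the genes tested include some detected in none. The part of signal level in the contrast of these medians was not tested.

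Syt4 was the 1 of the 3 synaptotagmins among the 10 genes that was higher in tumor 7. It encodes an unusual synaptotagmin of dense-core vesicles whose first C2 domain lacks a calcium-binding residue. Probe set 1415845_at read 10.57, 11.35, 10.69, 11.34, 11.53 and 11.33 in the adrenal tumors, 12.74 in tumor 7 and 11.40 in tumor 8. Tumor 7 exceeded the highest of the others by 1.22 and their mean by 1.57, and tumor 8 lay within the adrenal range. The other probe set, 1415844_at, read 10.31 to 11.58 in the other tumors and 12.36 in tumor 7, a difference of 1.47 in the same direction.

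Syt1, the fast calcium sensor of synaptic and dense-core vesicles, moved the other way. Probe set 1433884_at read 10.96, 12.16, 11.60, 11.93, 12.00 and 11.46 in the adrenal tumors, 10.64 in tumor 7 and 11.86 in tumor 8. Tumor 7 was lowest but only 0.32 below tumor 1, and lay -1.07 from the mean of the others. The other probe sets of Syt1 were detected in 2, 3 and 6 tumors. In tumor 7, 1421990_at and 1431191_a_at lay -0.71 and -0.48 from the mean of the others, but under the detection limit. There 1438282_at (6.82) was detected and lay -0.64 from the mean of the others, within their range. Syt11, a relative of Syt4 that does not act as a calcium sensor, had 5 probe sets. The kept 1456464_x_at read 13.14, 13.21, 12.58, 12.95, 13.47 and 12.92 in the adrenal tumors, 12.58 in tumor 7 and 13.15 in tumor 8. Tumors 3 and 7 were level at the bottom of this range. All 5 Syt11 probe sets lay below the mean of the others in tumor 7, by 0.37 to 0.69. Tumor 7 was the lowest tumor for 1429314_at, 1429315_at and 1455176_a_at, at 0.19, 0.22 and 0.03 below the others. By contrast, 1449264_at was lowest in tumor 1 (8.49) and 9.94 to 11.11 in the rest.

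Of the SNARE genes, Snap25 was lowest in tumor 7. It encodes the target-membrane SNARE that gives 2 helices to the fusion bundle. Probe set 1416828_at read 12.61, 13.64, 12.98, 13.67, 13.39 and 13.57 in the adrenal tumors, 11.84 in tumor 7 and 13.50 in tumor 8. Tumor 7 lay 0.77 below the lowest of the others and -1.50 from their mean. The dimmer 1447763_at read 7.24 to 7.67 in the adrenal tumors, 6.08 in tumor 7 (not detected) and 8.00 in tumor 8. With tumor 7 set at its detection limit, this probe set was at least 0.85 below the mean of the others. Both probe sets of Snap25 thus placed tumor 7 below every other tumor and tumor 8 apart from it.

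Stx1a, the syntaxin of the same complex, read 11.48, 11.65, 10.82, 11.25, 11.65 and 11.06 in the adrenal tumors, 11.42 in tumor 7 and 11.11 in tumor 8. Vamp2, the vesicle SNARE, read 10.80, 11.14, 11.05, 10.90, 11.39 and 10.91 in the adrenal tumors, 11.15 in tumor 7 and 10.95 in tumor 8. Both ganglion tumors lay within the adrenal range for both genes, and tumor 7 was 0.13 above the mean of the others in each. The 3 SNARE genes of the fusion complex therefore had unequal differences in tumor 7. The probe set 1420833_at of Vamp2 was detected in no tumor. The probe set 1448366_at of Stx1a was detected in all 8 tumors and read 8.24 in tumor 7, against 7.82 to 8.97 in the rest.

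Syp, which encodes synaptophysin, an abundant membrane protein of synaptic vesicles and a marker of neuroendocrine tumors, was highest in tumor 7. Probe set 1448280_at read 8.25, 9.55, 9.12, 9.23, 9.51 and 9.25 in the adrenal tumors, 10.08 in tumor 7 and 9.38 in tumor 8. Tumor 7 lay 0.53 above tumor 2, the next highest, and 0.90 above the mean of the others, a mean that includes the low tumor 1. The probe set 1456249_x_at of Syp was detected in no tumor. All 23 probe sets are plotted as differences of tumor 7 from the other tumors.

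**Figure D2:**
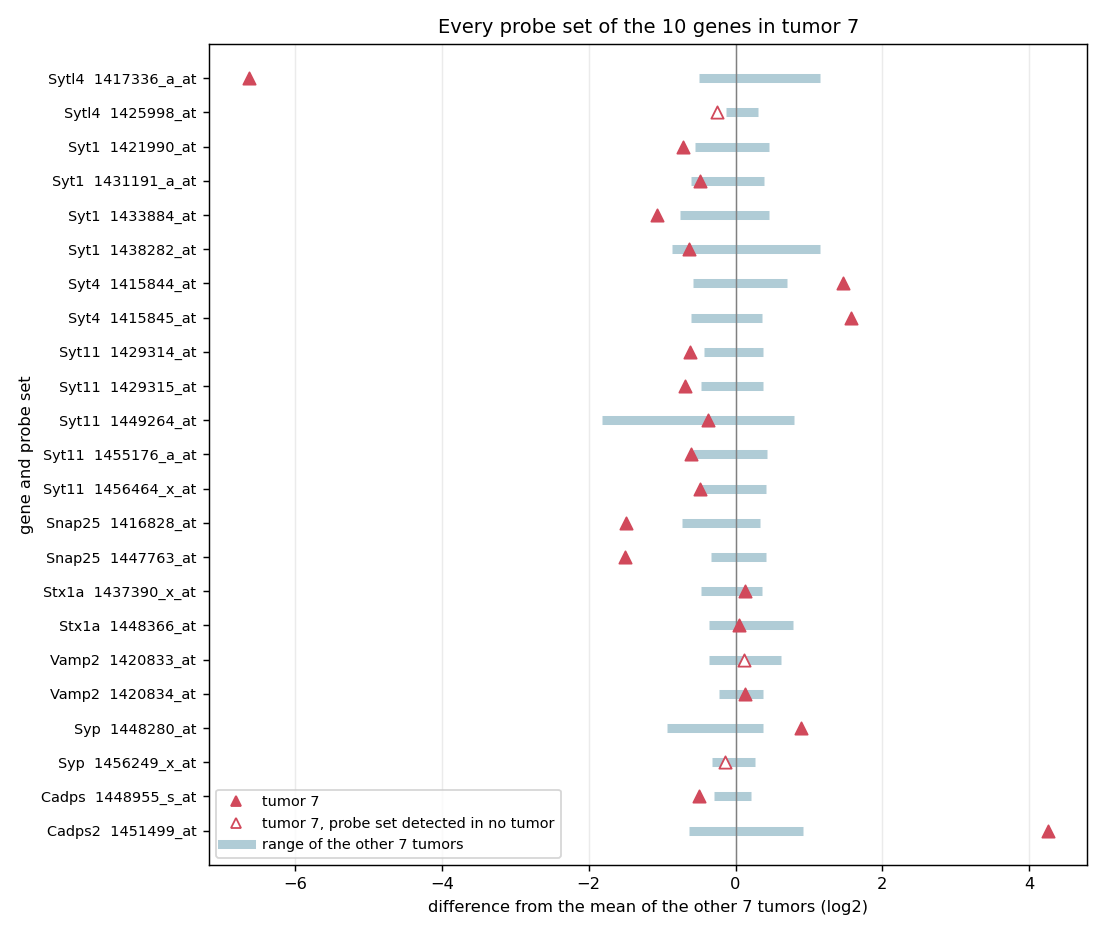
Difference of tumor 7 from the mean of the other 7 tumors (log2, horizontal axis) for all 23 probe sets of the 10 genes (vertical axis); triangles are tumor 7, open where the probe set was detected in no tumor, and bars span the other 7 tumors. Sytl4 1417336_a_at (-6.63) and Cadps2 (4.25) lay furthest out, and both probe sets of Syt4 (1.57 and 1.47) and of Snap25 (-1.50 for 1416828_at, the other undetected in tumor 7) lay outside the bars. Some probe sets of Syt1, Syt11, Syp, Cadps and Sytl4 (1425998_at) also lay outside the bars, by 0.53 or less.

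The comparison of the ganglion with the adrenal tumors asked whether expression follows the site of growth. With limma over all 16254 genes (2 ganglion against 6 adrenal tumors, Benjamini-Hochberg adjustment), 3 genes (0.0185%) were called at the 0.05 threshold, Acta1, Clvs2 and Tnnt3, all higher in the ganglion tumors. None of the 8 genes tested here was among them. Of the called genes, Clvs2 (6.13 and 6.36 in tumors 7 and 8) and Tnnt3 (6.23 and 6.02) lay under the detection limits of those arrays, 6.73 and 6.79. Acta1 and Tnnt3 are among the skeletal muscle markers above. At an unadjusted p under 0.05, 4.68% of all genes passed, and Syt4, read from 1415845_at, was the 1 of the 8 that did. With an intensity trend and robust estimation, limma also called 0 of the 8.

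Syt4 had a mean of 12.07 in the ganglion tumors and 11.13 ± 0.40 (SD, n = 6) in the adrenal tumors, a difference of 0.94 (SE 0.38, 95% confidence interval 0.08 to 1.79) with an adjusted p of 0.903 in limma. Its other probe set, 1415844_at, differed by 0.66 (interval -0.38 to 1.69), with an unadjusted p of 0.184 in limma. On 1415844_at, tumor 8 (10.77) lay below the adrenal mean (10.91). For Syp the difference was 0.58 (interval -0.19 to 1.36) and for Snap25 -0.64 (interval -1.62 to 0.34). For Syt1 it was -0.43 (interval -1.29 to 0.42) and for Cadps -0.33 (interval -0.73 to 0.06). In all 5 genes, tumor 7 lay outside the adrenal range and tumor 8 within it. Syt11, Stx1a and Vamp2 differed by -0.18, -0.05 and 0.02, with intervals from -0.73 to 0.37, from -0.61 to 0.50 and from -0.38 to 0.42. Adjusted p-values of the 8 genes in limma ran from 0.903 to 0.994. For Sytl4 and Cadps2 the site means mix tumor 7 with tumor 8: 9.48 against 12.93 in the adrenal tumors for Sytl4, and 7.27 against 5.03 for Cadps2.

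With tumor 8 left out, which sets tumor 7 alone against the adrenal tumors and assumes that it varies as they do, limma called 5.87% of all genes and 1 of the 8, Syt4, at a difference of 1.61 and an adjusted p of 0.0465. Over all alternatives the adjusted p of Syt4 ran from 0.0465 to 1.0. With tumor 7 left out, 0.0677% of all genes were called and 0 of the 8, and the difference of Syt4 was 0.26. In that comparison Syt1, Snap25 and Syt11 were 0.17, 0.19 and 0.10 higher in tumor 8 than in the adrenal mean, with the direction turned.

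Within the adrenal tumors, the 10 genes had a median SD of 0.41, against 0.24 over all genes tested, and the part of signal level in this contrast was not tested. Sytl4 (SD 0.59) and Cadps2 (SD 0.63, all values under the detection limits) had the largest SDs, and Cadps (0.18) and Vamp2 (0.21) the smallest. Tumor 1 was the lowest adrenal tumor for 6 of the 10 genes, Syt1, Syt4, Snap25, Vamp2, Syp and Cadps, a count made after the values were seen. Over all genes tested, tumor 1 was lowest of the adrenal tumors for 15.6%. Tumor 1 is also the array with the largest Gapdh 3′ to 5′ difference (5.51). The part of RNA integrity in these values was not tested. Without tumor 1, the SD of Syp over the adrenal tumors was 0.19 instead of 0.47, and that of Syt1 0.29 instead of 0.44. Sytl4 was highest in tumor 3, 1.12 above the adrenal mean.

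The wider machinery was read from 6 lists of 114 other genes of vesicle release, of which 107 were measured, 106 tested and 82 detected in all tumors. In the site comparison by limma 0 of the 106 were called (0 as well with an intensity trend and robust estimation), against 0.0185% of all genes. At an unadjusted p under 0.05, 9 of the 106 passed, against 4.68% of all genes. In tumor 7, 5 genes (4.72% of the 106) lay at least 1 above the range of the other tumors and 5 at least 1 below it, against 2.05% and 2.25% of all genes tested. The median absolute difference of tumor 7 over the 106 genes was 0.36 and the median signed difference -0.07, against 0.28 and -0.07 over all genes tested.

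The genes that were low in tumor 7 included 3 of docking and the active zone. Rph3al, which encodes the RAB effector NOC2, was 7.71 in tumor 7 and between 9.63 and 10.44 in the rest. Rab3b, a small GTPase of secretory vesicles, was 8.44 against 10.03 to 10.67, and Rims3, a short RIM protein, was 8.59 against 10.04 to 10.73. Doc2b, a soluble calcium sensor with C2 domains, was 9.69 against 11.46 to 12.14, and Syt17, a C2-domain protein of the synaptotagmin family, was 9.71 against 11.02 to 11.74. All 5 were detected in every tumor, tumor 7 included.

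The genes that were high in tumor 7 came from 4 lists. Syt13, an atypical synaptotagmin, was 8.55 in tumor 7 and between 5.21 and 6.21 in the rest, and was detected in tumor 7 alone. Stxbp6, which encodes the SNARE-binding protein amisyn, was 7.26 against 4.96 to 5.77, and Cplx3, a complexin, was 7.79 against 5.92 to 6.72, both again detected in tumor 7 alone. Myrip, a RAB27 effector that binds myosin, was 10.03 against 7.82 to 8.70, and Sv2b, a vesicle glycoprotein, was 9.10 against 6.29 to 7.85. The genes of the RAB27 GTPases, named after their values were seen, lay within the range of the other tumors. Rab27a was 9.19 in tumor 7 and between 7.98 and 9.92 in the rest. Rab27b, detected in 5 tumors, was 6.31 in tumor 7, under the detection limit of 6.73 there, and between 5.41 and 7.64 in the rest.

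By list, the median absolute difference was 0.18 for recycling, 0.30 for the 18 genes of the vesicle membrane and 0.34 for the 25 of docking and the active zone. It was 0.45 for the SNARE genes, 0.47 for the 20 of SNARE assembly and priming, and 0.66 for the 14 synaptotagmins and synaptotagmin-like genes, against 0.28 over all genes tested. These medians were not compared by a test. The differences of all 10 and 106 genes in tumor 7 are plotted by list.

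**Figure D3:**
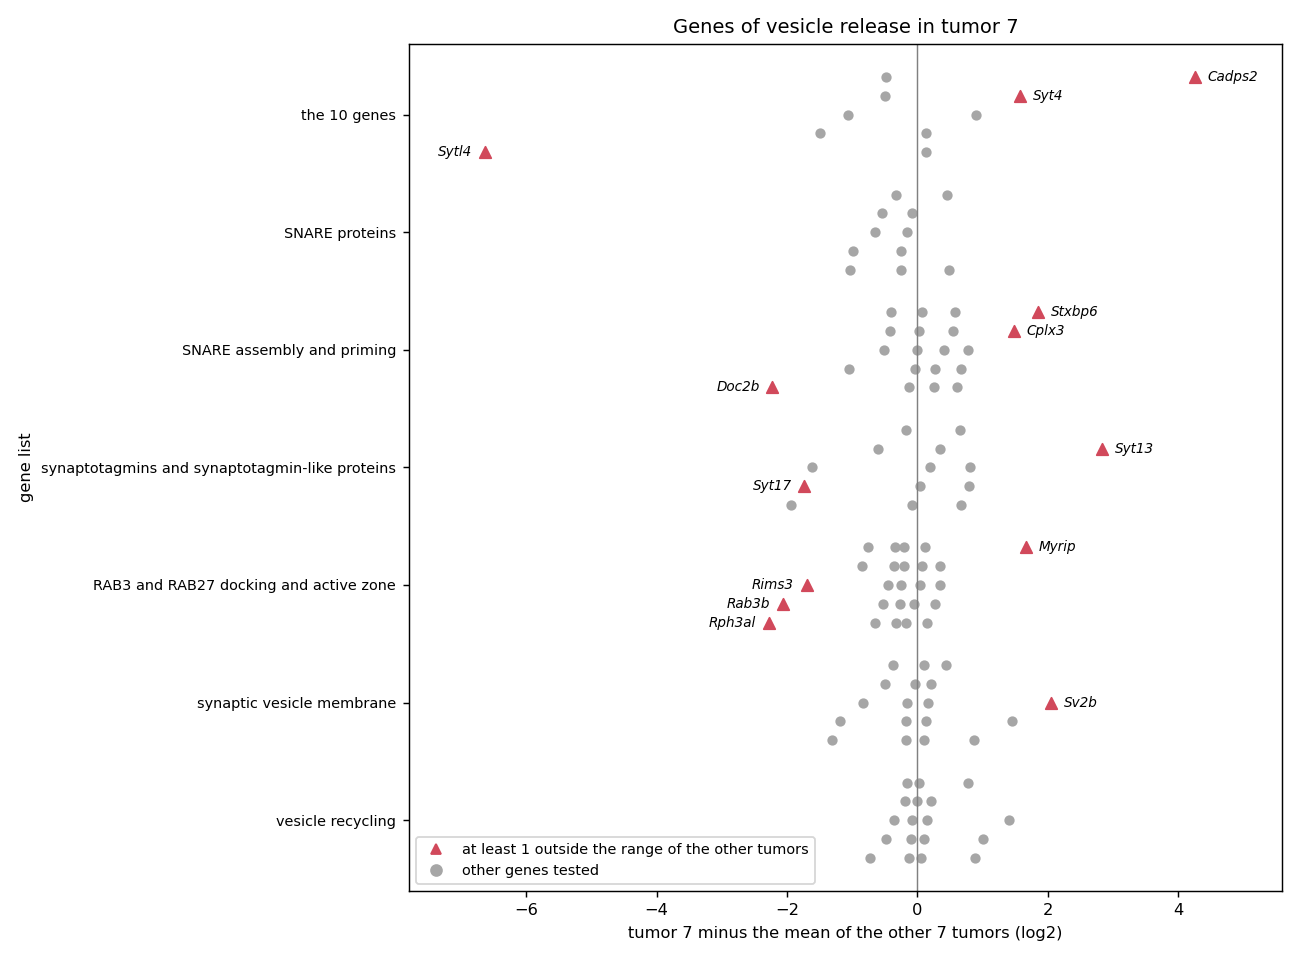
Tumor 7 minus the mean of the other 7 tumors (log2, horizontal axis) for each gene tested of the 10 genes and of 6 lists of other vesicle release genes (vertical axis); red triangles lie at least 1 outside the range of the other tumors and are named. Outside the 10 genes, 5 lie to the right (Stxbp6, Cplx3, Syt13, Myrip, Sv2b) and 5 to the left (Doc2b, Syt17, Rph3al, Rab3b, Rims3).

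The genes whose levels over the 8 tumors were closest to those of Sytl4, by the root mean square difference of values centred per gene, were Ddc (0.49), Tfap2b (0.53) and Slc6a2 (0.57). Ddc, the decarboxylase of catecholamine synthesis, was 7.38 in tumor 7 and between 13.66 and 14.25 in the rest. Tfap2b, a transcription factor of the sympathetic lineage, was 7.00 against 12.78 to 13.64, and Slc6a2, the noradrenaline transporter, was 6.65 against 12.37 to 13.37. The SD of Sytl4 over the tumors was 2.40 with tumor 7 and 0.55 without it, and Sytl4 and Slc6a2 lay under the detection limit of 6.73 there, so this likeness rests mainly on the tumor on which Sytl4 was chosen. Ddc is also among the noradrenergic markers above.

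The closest profiles to that of Cadps2 were those of Arhgap15 (0.41), Cdh6 (0.43) and Serpinb2 (0.45). Arhgap15, a RAC regulator, was 9.21 in tumor 7 and between 4.45 and 5.46 in the rest. Cdh6, a cadherin, was 10.12 against 6.06 to 7.89, and Serpinb2, a protease inhibitor, was 7.90 against 3.78 to 5.04. Since 7 of the 8 values of Cadps2 lay under the detection limit, the likeness rests mainly on tumor 7. Both sets of profiles are plotted.

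**Figure D4:**
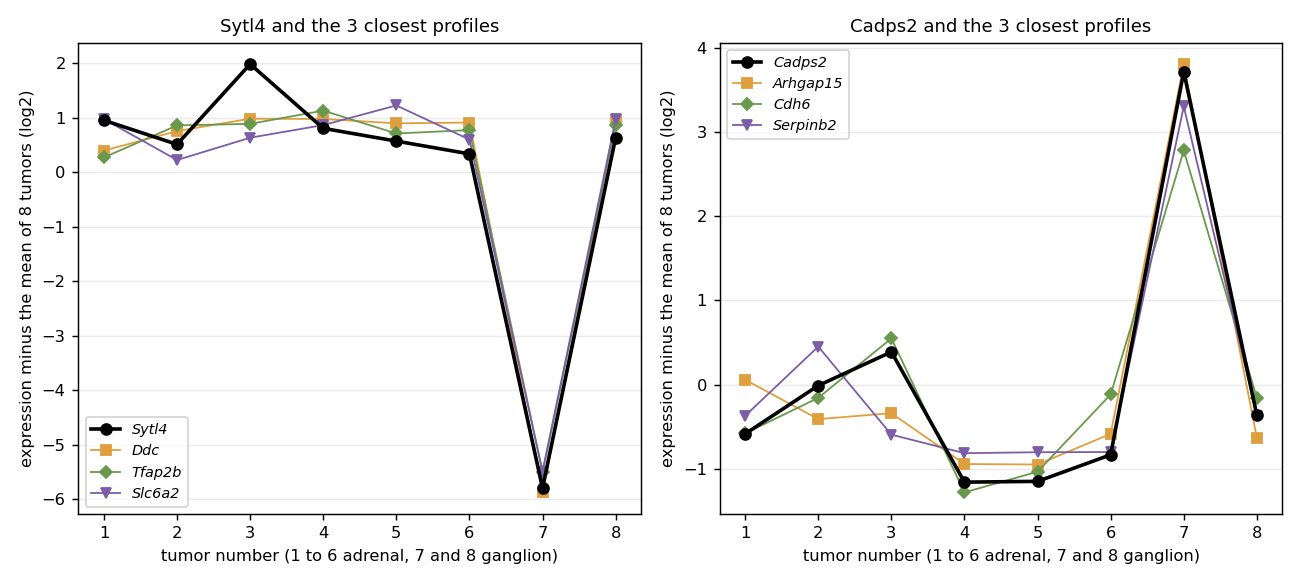
Expression minus each gene's mean over the 8 tumors (log2, vertical axis) by tumor (horizontal axis; lines only join the points of a gene) for Sytl4 with Ddc, Tfap2b and Slc6a2 (left) and Cadps2 with Arhgap15, Cdh6 and Serpinb2 (right). All 4 genes on the left are lowest, and all 4 on the right highest, in tumor 7.

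The 3 nearest measured genes on either side, by RefSeq gene order, were read to see whether the differences of Sytl4 and Cadps2 extended along the chromosome. On the X chromosome, Pcdh19, the third gene to the left of Sytl4, was 7.92 in tumor 7 and between 9.52 and 10.60 in the rest. The other neighbours, Tspan6, Srpx2, Cstf2, Xkrx and Trmt2b, differed from the mean of the others by -0.69 to -0.03, and Srpx2 and Xkrx were detected in no tumor. Beside Cadps2 on chromosome 6, Ptprz1, the second gene to the left, was 9.03 in tumor 7 and between 5.58 and 7.86 in the rest, whereas Fam3c, 4930554P06Rik, Ndufa5, Wasl and Hyal4 differed by -0.11 to 0.33. Of these, 4930554P06Rik and Hyal4 were detected in no tumor. The median difference of tumor 7 was -0.13 over 512 genes of the X chromosome and -0.16 over 837 genes of chromosome 6.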

How the data were processed

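RNA of 8 tumors was measured on Affymetrix murine oligonucleotide arrays, 1 per tumor, and the authors deposited log2 expression values per probe set, from 3.00 to 15.27. RMA and Partek 6.6 are named in the submitters' processing notes, gcRMA in the study's Methods, and the values do not show which was used. Background correction and normalization between arrays are included in them, and gcRMA and RMA differ most at low values. Probe sets were named from the platform annotation: 34958 had 1 gene, 932 several and 9211 none; 34754 matched the RefSeq table (GRCm38.p6) by Entrez identifier. Sites were grouped by the labels.

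Each gene was read from its probe set with the highest mean, and limma was run on genes that exceeded log2 5 in 2 or more tumors (version 3.58.1, R 4.3.3; lmFit, eBayes, Benjamini-Hochberg, threshold 0.05), a step tested on simulated data. The simulation used independent normal noise and shifted both ganglion tumors alike. It therefore does not cover a ganglion tumor that stands apart from the other, as tumor 7 does. Summaries and plots were made in Python 3.11.15 with pandas 2.3.3, numpy 2.4.6 and matplotlib 3.10.9. The number of arrays limits the precision. Members, gene lists and tests were chosen with earlier results of these data known. Genes named beyond the 10 are, per list, up to 3 with the largest rise and fall in tumor 7 among those at least 1 outside the range of the others, the 3 closest profiles and 3 neighbours on either side; the rest are marked. Alternatives changed the normalization, the filter, the probe set, the test or the detection limit, or left out a tumor; leaving out both tumors 6 and 7 was chosen after seeing the data. Some genes of the lists were not analysed here and are not reported. Of the other markers, centred means in tumor 7 against the range of the others were -0.22 (-0.37 to 0.50) for chromaffin cells, -0.76 (-0.56 to 0.32) for macrophages, -1.66 (-1.40 to 1.12) for Schwann cells and 0.37 (-0.99 to 0.54) for endothelium and pericytes, and 5 of 6 salivary gland markers were detected in no tumor.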

Additional observations from a re-analysis of the deposited data

Results flagged for a closer look

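Among the 6 adrenal tumors, 2 of the 23 probe sets had an extreme tumor whose gap to its neighbour took more than the limit of 0.625 of the group's range, where chance flags about 1 in 20. For Sytl4, probe set 1417336_a_at stood at 14.05 in tumor 3 and between 12.40 and 13.02 in the remaining adrenal tumors, a gap of 0.626 of the range, just past the limit. For Syp, probe set 1448280_at stood at 8.25 in tumor 1 and between 9.12 and 9.55 in the remaining 5, a gap of 0.671 of the range. Tumor 1 also had the largest Gapdh 3′ to 5′ difference (5.51). Whether it bears on Syp was not tested.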

How the results depend on the processing

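The number of genes called in the site comparison was 3. It was 1 with genes above log2 7 in at least 2 tumors, 6 with the mean of all probe sets of a gene, 5 with every probe set tested and 10 without tumors 6 and 7, and 2 to 954 with each tumor left out, 11 without tumor 7 and 954 without tumor 8. Of the 8 genes not chosen on tumor 7, 0 were called, and 0 to 1 with each tumor left out. No paired analysis was possible because the labels give the tumors no shared replicate numbers across the sites.

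Of 120 recomputed differences of these 8 genes, 1 crossed the threshold (Syt4 without tumor 8) and 17 uncalled differences turned direction. Vamp2 was -0.021 with the mean of all probe sets, -0.063 with the probe set of highest SD and -0.10 without tumors 6 and 7; Syt11 was 0.35 with the probe set of highest SD and 0.077 without tumors 6 and 7. Without tumors 6 and 7, Syt1 was 0.13 and Snap25 0.24. With each tumor left out, Vamp2 ran from -0.079 to 0.12, Stx1a from -0.21 to 0.10, Syt1 from -1.04 to 0.17, Syt11 from -0.46 to 0.10 and Snap25 from -1.47 to 0.19.

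The difference of Sytl4 in tumor 7 was -3.44 with the mean of its probe sets, which averages in the undetected 1425998_at, and -6.71 to -6.44 with each other tumor left out. That of Cadps2, 4.25, was 4.15 to 4.40 with each other tumor left out. The difference of Syp, 0.90, was 0.38 with the mean of its probe sets, which averages in the undetected 1456249_x_at, and that of Syt1, -1.07, was -0.64 with its probe set of highest SD. Cadps2 passes no filter at log2 7 in at least 2 tumors. Detection in all tumors held for 14 of 23 probe sets, for 14 with the 99th percentile or quantile normalization, and for 21 above log2 5. Genes at least 1 outside the range in tumor 7 numbered 698, and 553 to 783 in the alternatives. Signal over background limits Cadps2, detected in 1 tumor.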
